A study of Mus musculus with 2 samples.

Results

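The 9 genes followed here mark excitatory neurons of the hippocampus and the neighbouring cortex and were read from a map of where the protein PARIS sits on chromatin. They are Prox1, Wfs1, Neurod1, Neurod2, Neurod6, Bcl11b, Zbtb20, Fezf2 and Tbr1, chosen by name as known markers, with no threshold on signal. Their peaks were those that carry one of these 9 symbols in the authors' annotation, which gave 87 of 99797 peaks, with every gene represented. The map came from CUT&Tag, in which an antibody guides a transposase to its target so that the DNA beside it is cut and sequenced. Hippocampus of CamK-PARIS mice on the C57BL/6J strain gave 1 anti-FLAG library, and 1 IgG library of the same tissue, strain and genotype served the authors as the control for peak calling. The mice received no treatment, and the labels used here do not give age, sex or number of animals, nor do they say which promoter drives the transgene. No library of mice without the transgene was analysed here.

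PARIS is a zinc-finger repressor encoded by Zfp746, and FLAG is a short peptide tag used to capture a protein with an antibody. Excitatory neurons of the hippocampus fall into granule cells of the dentate gyrus and pyramidal cells of the CA fields, and transcription factors set and keep these identities. Prox1 specifies and maintains dentate granule cells and is also found in some interneurons. Wfs1 encodes wolframin, a protein of the endoplasmic reticulum, and is a marker of CA1 pyramidal cells, not a transcription factor. Bcl11b (CTIP2) and Zbtb20 are zinc-finger factors of CA1 and dentate neurons. Neurod1, Neurod2 and Neurod6 are basic helix-loop-helix activators that drive excitatory neurons to differentiate. Fezf2 and Tbr1 specify deep-layer projection neurons of the neocortex. A peak in this assay does not measure expression, so the tissue label could not be checked against these markers.

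Each antibody had 1 library, so no difference carries a replicate error and no test was made. The values describe the anti-FLAG peaks, intervals are 95% Wilson intervals that cover counting error over peaks alone, and the sequencing depth is unknown. Signal is the authors' coverage value, of which the maximum is the height of a peak and the total is its sum over the bases. A peak was termed of constant height when its total was at least 99% of maximum times width. TSS stands for transcription start site, and a gene start is the 5′ end of the gene in GENCODE M21. Positions are on mm10 and counted from 1.

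The sequences under the promoter-side peaks are shown first, because they show what lies under the peaks within 1 kb of a TSS, with the peak over the start of Neurod1, which the authors assigned to Cerkl, added. Each is the part of the peak that held the maximum signal, except for 100 bp around the summit at Neurod1, read 5′ to 3′ on the strand of the gene, with every CG pair in capitals. The Neurod1 stretch surrounds a summit at -188 bp from the gene start and does not hold the start itself. Sequence that overlaps an annotated UTR was left out, which removed the peak just inside the start of Neurod2.
Prox1, chr1:190168836-190168927, minus strand: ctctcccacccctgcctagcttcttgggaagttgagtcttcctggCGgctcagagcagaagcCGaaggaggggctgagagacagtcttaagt
Wfs1, chr5:36977269-36977306, minus strand: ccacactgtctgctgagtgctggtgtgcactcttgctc
Bcl11b, chr12:108003614-108003831, minus strand: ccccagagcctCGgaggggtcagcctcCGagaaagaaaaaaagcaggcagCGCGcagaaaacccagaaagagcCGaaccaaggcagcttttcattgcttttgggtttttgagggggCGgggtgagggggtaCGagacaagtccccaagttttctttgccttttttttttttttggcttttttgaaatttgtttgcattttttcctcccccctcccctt
Bcl11b, chr12:108002592-108002736, minus strand: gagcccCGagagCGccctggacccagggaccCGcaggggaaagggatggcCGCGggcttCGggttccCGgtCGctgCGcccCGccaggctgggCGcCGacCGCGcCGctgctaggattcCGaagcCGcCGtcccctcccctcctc
Bcl11b, chr12:108004194-108004257, minus strand: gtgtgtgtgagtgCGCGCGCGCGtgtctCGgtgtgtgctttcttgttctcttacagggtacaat
Neurod2, chr11:98330093-98330150, minus strand: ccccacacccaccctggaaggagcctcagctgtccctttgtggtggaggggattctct
Neurod1 start, chr2:79456889-79456988, minus strand: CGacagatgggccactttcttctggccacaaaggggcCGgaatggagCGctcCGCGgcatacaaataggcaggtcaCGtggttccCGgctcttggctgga
The Bcl11b stretch in the intron held 18 CG pairs in 145 bases, while the one just before the gene start held 7 in 218 and the one farther upstream 6 in 64. The printed stretches of Wfs1 and Neurod2 held 0 in 38 and 0 in 58 bases, and that of Prox1 held 2 in 92. The Neurod2 stretch left out for its UTR overlap held 8 in 94.

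All 9 genes had an assigned peak, as did 71.0% of the 21911 protein-coding genes. The number per gene ran from 2 for Fezf2 and 3 for Neurod1 through 5 for Tbr1, 6 for Neurod6, 8 for Wfs1 and 10 for Prox1 to 12 for Neurod2, 13 for Zbtb20 and 28 for Bcl11b. The median was 8 assigned peaks, against 2 over all protein-coding genes. Counted by position, within 50 kb to either side of the gene start, the median was 5 for the 9 genes and 5 for all protein-coding genes. Bcl11b, Zbtb20 and Neurod2 together held 53 of the 87 peaks (60.9%), so shares taken over peaks mostly describe these genes. Bcl11b stood at the 98.7th percentile of protein-coding genes by number of peaks and Fezf2 at the 52.2nd.

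Peaks within 1 kb of a TSS were found at a share of these genes close to that of genes at large. The share of genes with a peak within 3 kb was higher, but the share of peaks within 3 kb was not. By the authors' distances, 4 of the 9 genes had a peak within 1 kb of a TSS, against 41.6% of protein-coding genes. These were Prox1, Wfs1, Neurod2 and Bcl11b. In 3 of them, all but Prox1, the peak or 1 of the peaks did not have a constant height, against 28.3% of protein-coding genes. Within 3 kb the count was 8 of 9, with Neurod6 the exception, against 50.7%. Within 1 kb of a TSS lay 7 of the 87 peaks (8.05%, 3.95 to 15.7), compared with 15.3% of all peaks (15.1 to 15.5), and the interval for the 87 reaches that share. Counted by peak within 3 kb, it was 18 of the 87 (20.7%, 13.5 to 30.4), compared with 24.6% of all peaks, again inside the interval.

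Measured to the gene start itself, a peak came within 1 kb for 5 of 9 genes, against 39.3% of protein-coding genes. The gene start lay inside a peak for 1 of 9, against 20.4%. That gene was Neurod1, and the authors had assigned its peak to Cerkl. The closest peak began 11 bp before the start of Bcl11b, 6 bp inside that of Neurod2 and 95 bp before that of Tbr1. The gap was 995 bp at Wfs1, 1265 bp at Prox1, 3666 bp at Fezf2, 19765 bp at Neurod6 and 76910 bp at Zbtb20. Merging peaks within 1 kb of each other raised the count of covered starts to 3, and requiring the part of maximum signal to hold the start lowered it to 0. These changed rules were not applied to all protein-coding genes, so the counts have no share to be set against.

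**Figure D1:**
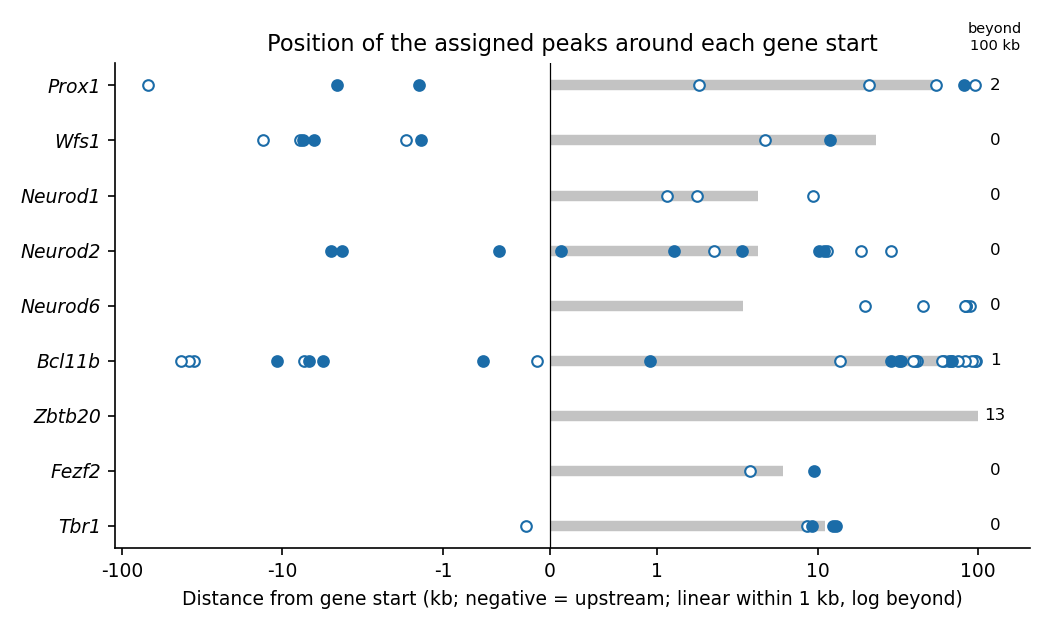
Position of each assigned peak, taken at the middle of its part of maximum signal, relative to the gene start in kb (horizontal axis, linear within 1 kb and logarithmic beyond) for the 9 genes. Open points are peaks of constant height, filled points are other peaks, grey bars are gene bodies cut at 100 kb, and the numbers at the right count peaks farther away. Prox1, Wfs1, Neurod2, Bcl11b and Tbr1 have peaks on both sides of the start, while all 13 peaks of Zbtb20 lie more than 100 kb into the gene.

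Prox1 (ENSMUSG00000010175, chr1:190118035-190170714, minus strand) had 10 peaks spread over 227.8 kb. Their maximum signal ran from 28 to 258, with a median of 118 against 101 over all peaks, and 6 were of constant height. The highest, at chr1:190088905-190089090, lay outside any transcript, 80429 bp beyond the TSS and past the far end of the gene. Its maximum of 258 stood at the 96.1st percentile of all peaks and was the highest among the 9 genes. The peak 472 bp inside an alternative TSS was 94 bp wide, reached 119 and was of constant height. The widest, 655 bp and 104007 bp upstream, reached 205. A peak 1360 bp upstream reached 117 and one 4542 bp upstream reached 144, both inside an intron of Prox1os, the antisense transcript. The gene body itself held only 2 peaks, 1.07 times the density of chromosome 1.

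Wfs1 (ENSMUSG00000039474, chr5:36966104-36989205, minus strand) had 8 peaks, with maxima from 58 to 156 around a median of 110. Of these, 4 were of constant height. The peak within 1 kb, at chr5:36977202-36977776 with a maximum of 111, lay 313 bp upstream of the TSS of a short transcript that starts inside the gene, and thus in an intron of the longer ones. Upstream of the main start, 6 peaks were strung out between 1181 and 12959 bp. The highest, 156, lay 7407 bp upstream, and the widest, 579 bp, was the nearest of the 6 with a maximum of 58.

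Bcl11b (ENSMUSG00000048251, chr12:107910403-108003602, minus strand) carried the most peaks, 28, of which 20 were of constant height. Maxima ran from 30 to 205, and their median of 91.5 was below the 101 of all peaks. The gene body overlapped 16 of them, 4.55 times the density of chromosome 12. The highest, 205 at chr12:107934389-107934774, lay in the last intron, 68748 bp from the TSS. Around the start, 3 peaks lay within 1 kb, at 678 bp inside and at 12 and 592 bp upstream, and their maxima of 60, 95 and 42 were all below the median of all peaks. Farther upstream, at 5534 bp, came the widest peak of the 9 genes, which measured 1591 bp at chr12:108008255-108009845 and reached 154. A neighbour of 853 bp at 6725 bp upstream reached 115.

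Zbtb20 (ENSMUSG00000022708, chr16:42875881-43642602, plus strand) is the longest of the genes at 766.7 kb, with many alternative starts. Its 13 peaks were all intronic in GENCODE M21, and 10 were of constant height. Maxima ran from 46 to 202, with a median of 113. The highest, at chr16:43270368-43270987, lay 23086 bp past one of the internal TSSs, and the closest to any TSS was 1407 bp upstream of another, with a maximum of 140. The widest, 674 bp, reached 159. No peak came within 50 kb of the gene start. The gene body overlapped 18 peaks, of which 5 were assigned by the authors to Mir568 (3), Gm15713 (1) and Ndufs5-ps (1). Even with these, the density was 0.639 times that of chromosome 16.

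The NeuroD genes, which are short and related, differed widely. Neurod2 (ENSMUSG00000038255, chr11:98325415-98329648, minus strand) had 12 peaks in 34.1 kb, with maxima from 53 to 241 and a median of 141.5. Only 4 were of constant height. The gene body of 4.23 kb overlapped 4 of the peaks, 16.7 times the density of chromosome 11, a ratio that stood at the 98.6th percentile of protein-coding genes. In a gene this short few peaks make a high ratio, and the part of length in it was not tested. At the start, a peak 57 bp inside reached 174 and one 445 bp upstream reached 176. A peak 1164 bp inside, 1027 bp wide with a maximum of 180, had the largest total signal of the 87, 106766, the rank 3210 among all peaks. The highest, 241 at chr11:98326061-98326611, lay in the 3′ UTR.

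Neurod1 (ENSMUSG00000034701, chr2:79452521-79456751, minus strand) had 3 peaks with maxima of 42, 81 and 112, all of constant height. It overlaps the 5′ part of Cerkl, a ceramide kinase-like gene on the same strand. Of the 3 peaks, 1 lay 1001 bp and 1 lay 1472 bp inside the start, the latter the widest at 609 bp and in coding sequence, and the other lay in a Cerkl intron 9282 bp away. The peak over the gene start, at chr2:79456658-79457284, was higher than these, with a maximum of 155 (83.9th percentile), and was not of constant height. Its summit was at -188 bp from the start of Neurod1 and at -154 bp from the Cerkl TSS to which the authors assigned it. By maximum signal it had rank 2346 among the 4471 protein-coding genes whose start lay in a peak. With that peak, the body of Neurod1, which is as short as that of Neurod2, overlapped 3 peaks, 16.6 times the density of chromosome 2.

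Neurod6 (ENSMUSG00000037984, chr6:55677822-55681263, minus strand) stood at the other end, with 0 peaks in its body. Its 6 peaks lay between 19766 and 88817 bp beyond the TSS, all outside transcripts and all of constant height. Maxima ran from 40 to 145, with a median of 94.5. The peak nearest to the TSS was the highest, and the widest, 587 bp, was the lowest. The gene start had 2 peaks within 50 kb to either side, compared with 5 at Neurod1 and 27 at Neurod2.

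The cortical projection factors also differed from each other. Fezf2 (ENSMUSG00000021743, chr14:12342094-12348189, minus strand) had 2 low peaks. One, of constant height with a maximum of 70, lay in the coding sequence 1321 bp inside a TSS, and the other, 884 bp wide with a maximum of 29, lay 7023 bp from it beyond the gene. Tbr1 (ENSMUSG00000035033, chr2:61802930-61814114, plus strand) had 5 peaks with maxima of 143, 63, 198, 116 and 255 in the order of their position. The first was of constant height, ended 95 bp before the gene start and lay 1619 bp upstream of the TSS the authors used. Those of 63 and 198, the latter the widest at 959 bp, lay in coding sequence near the 3′ end, and those of 116 and 255 lay beyond the gene. Both peaks above 143 were thus on the 3′ side of Tbr1.

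**Figure D2:**
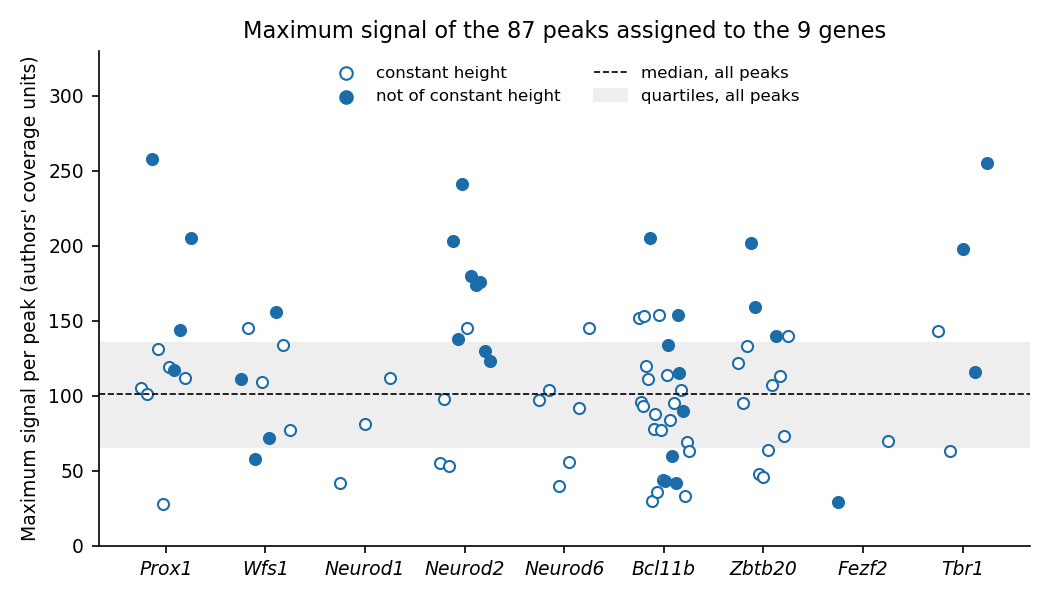
Maximum signal (vertical axis, the authors' coverage units) of each of the 87 peaks by gene, in order of position within a gene. Open points are peaks of constant height and filled points are other peaks, with the dashed line at the median of all 99797 peaks (101) and the grey band from their lower to their upper quartile (66 to 135). Every point above 189 is filled, and Neurod1, Neurod6 and Fezf2 have no point above 145. Over all peaks, those of constant height had an upper quartile of 117.

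The highest peaks of these genes were all more than 1 kb from a TSS. A peak among the 10% with the highest maximum signal, meaning 189 or more, was found at 5 of 9 genes, against 24.8% of protein-coding genes. The 5 were Prox1 (258 and 205), Tbr1 (255 and 198), Neurod2 (241 and 203), Bcl11b (205) and Zbtb20 (202). Constant height was seen in 0 of these 8 peaks, and 0 of 8 lay within 1 kb of a TSS, which allows a share of up to 37.5% (3 counts of 8) or, by the Wilson interval, 32.4%. Among all peaks of that height 32.2% (31.3 to 33.1) lay within 1 kb, which is just under the Wilson limit, so no difference was detectable with 8 peaks. The share of constant height among all peaks of that height was not counted. Over the whole list, peaks of constant height had an upper quartile of 117 and a highest maximum of 234, so few reach 189 in any gene. The highest peak per gene had a median of 202 over the 9 genes and 150 over protein-coding genes with a peak, and genes with more peaks have more chances of a high one.

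In shape the 87 peaks were near the whole list. Peaks of constant height made up 56 of 87 (64.4%, 53.9 to 73.6) and 63.3% of all peaks. Distal intergenic positions held 36 (41.4%, 31.6 to 51.9) against 31.9%, and introns 28 (32.2%, 23.3 to 42.6) against 38.0%. Promoter positions between 1 and 2 kb held 9 (10.3%, 5.54 to 18.5, against 5.30%). Only in this last class did the interval leave out the share of all peaks, by a narrow margin. Of its 9 peaks, 1 lay 1001 bp from the TSS of Neurod1, at the edge of the class. Several classes were compared, the peaks cluster in few genes, and an excess was not tested. Peaks that were not of constant height had a median maximum of 140 among the 31 of these genes and 134 among all.

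GC content at the summits ranged widely between the genes. Over the 200 bp at the summit it had a median of 50.5% in the 87 peaks and 49% in all. Tbr1 had a median of 69.0%, with 4 of its 5 peaks between 66.5% and 74.5%, all of them more than 3 kb from a TSS. Neurod2 had a median of 62.3%, and Zbtb20, at 43.0%, had the lowest. Neurod1 and Neurod6 were at 46.5% and 46.8%.

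**Figure D3:**
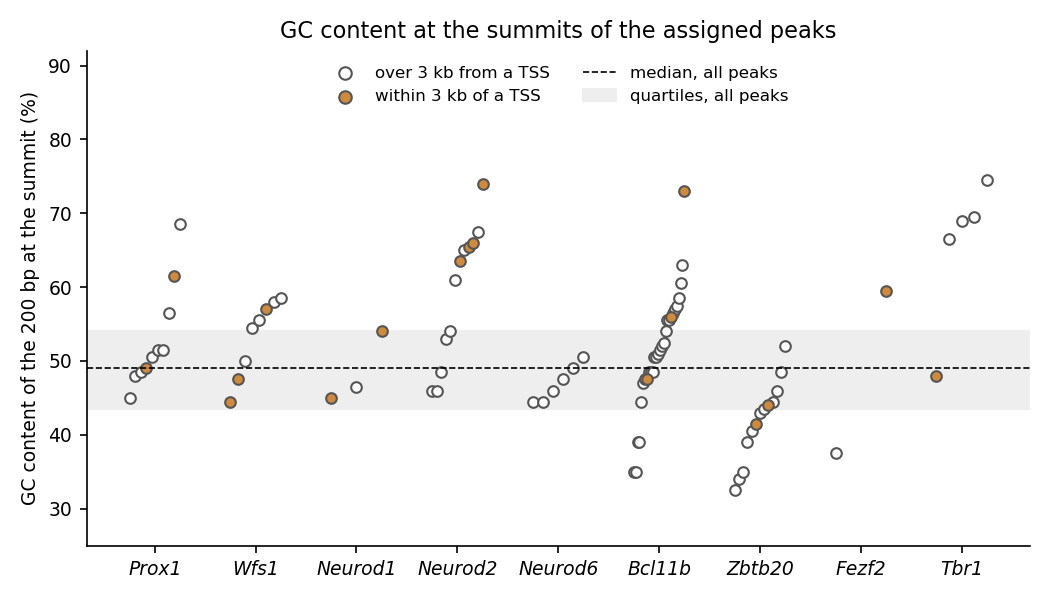
GC content (vertical axis, percent) of the 200 bp at the summit of each of the 87 peaks by gene, sorted within a gene. Filled points lie within 3 kb of a TSS and open points farther away, the dashed line is the median of all peaks (49%) and the grey band spans their quartiles (43.5% to 54.0%). The 4 highest points of Tbr1 lie far from a TSS, and the points of Zbtb20 lie at 52.0% or lower.

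The insulin response sequence, TATTTTT or TATTTTG on either strand, has been reported as the element PARIS binds. It was present in the 200 bp at the summit of 6 of the 87 peaks (6.90%, 3.20 to 14.2) and of 9.97% of all peaks on the assembled chromosomes. In windows of 400 bp the direction turned, with 21.8% of the 87 peaks (14.5 to 31.6) against 19.3% of all. Over whole peaks the share was again lower, at 13.8% (8.07 to 22.6) against 17.7% of all. Each of these intervals held the share of all peaks, so no difference in either direction was detectable. Of the matches in the 200 bp windows, 5 are printed with the motif in capitals and 20 bases to either side, to show where each fell.
Tbr1, chr2:61802671-61802717, plus strand: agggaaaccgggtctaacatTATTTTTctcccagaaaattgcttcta
Neurod6, chr6:55597136-55597182, plus strand: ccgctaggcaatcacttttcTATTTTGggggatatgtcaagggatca
Bcl11b, chr12:107975108-107975154, minus strand: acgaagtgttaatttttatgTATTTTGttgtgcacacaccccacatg
Zbtb20, chr16:43194037-43194083, minus strand: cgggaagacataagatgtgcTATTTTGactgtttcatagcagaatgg
Zbtb20, chr16:43309874-43309920, plus strand: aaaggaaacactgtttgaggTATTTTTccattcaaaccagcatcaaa
The Tbr1 match was the one within 3 kb of a TSS, in the peak just before the gene start. Of the 6 peaks, 5 were of constant height, and the exception was the intronic peak of Bcl11b with a maximum of 134. No summit of Prox1, Wfs1, Neurod1, Neurod2 or Fezf2 held the motif in the 200 bp window.

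Other genes of excitatory and other cell types give the setting. A further list held 30 transcriptional regulators chosen by name for forebrain excitatory neurons, and whether they are particular to these cells was not checked. Among them, 24 had a peak within 1 kb of a TSS, 20 had such a peak without constant height, and 10 had the gene start inside a peak. By signal within 1 kb, the leading ones were Rfx3 (442), Id2 (383), Pou3f1 (357), Tcf4 (344) and Nfix (303), each above the 176 of Neurod2, the highest such value among the 9 genes. Of 21 markers of hippocampal subfields, 9 had a peak within 1 kb, and Pou3f1 is counted both here and among the 30. The counts were 16 of 18 for interneuron genes, 3 of 10 for astrocyte, 3 of 10 for oligodendrocyte and 4 of 10 for microglia genes. Within 3 kb the share was 93.3% for the further excitatory factors and 88.9% for the identity factors and for the interneuron genes. It was 57.1% for subfield markers, 60% for astrocyte, 40% for oligodendrocyte and 60% for microglia genes. Over all protein-coding genes it was 50.7%. None of these differences was tested. The lists differ in gene length, with a median of 11.2 kb for the identity factors, 93.6 kb for the further excitatory factors and 7.60 kb for interneuron genes, and the part of length in the counts was not tested.

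**Figure D4:**
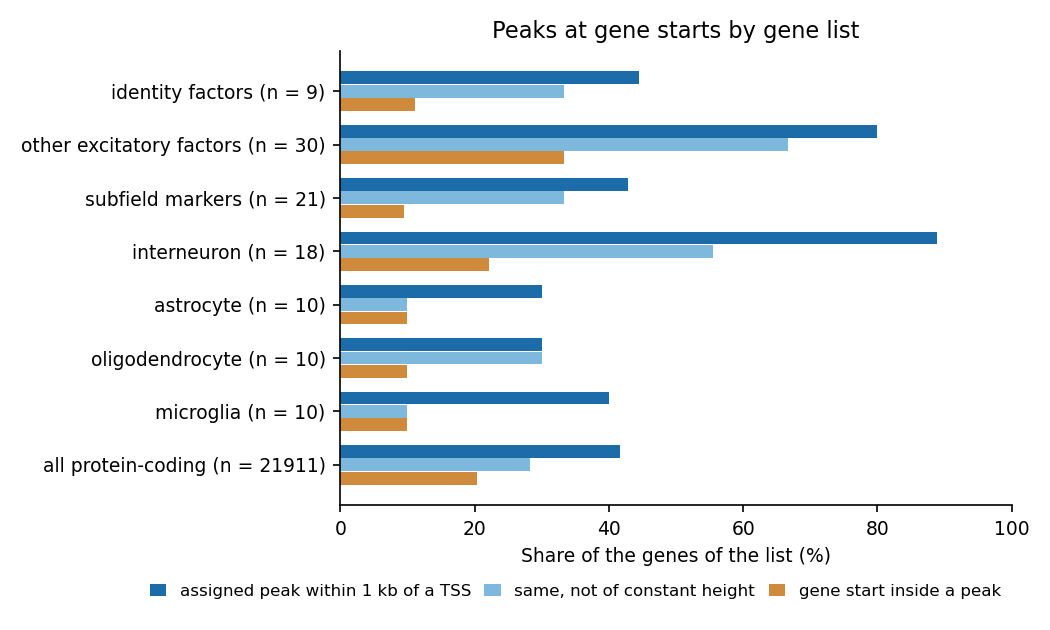
Share of genes (horizontal axis, percent) in each list with an assigned peak within 1 kb of a TSS (dark blue), with such a peak that is not of constant height (light blue) and with the gene start inside a peak (orange). The identity factors, at 44.4%, 33.3% and 11.1%, lie close to all protein-coding genes in the blue bars (41.6% and 28.3%), while the interneuron list reaches 88.9%.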

How the data were processed

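Trimmed reads were aligned by the authors to mm10 with Bowtie2, duplicates and reads of low quality were discarded, and SEACR called anti-FLAG peaks with IgG as the control, per the labels' protocols. Versions and SEACR settings are not given in the sources used here. The deposited peak list holds a maximum signal and, as a score, the total signal of each peak, in whole numbers whose scaling is not stated. The deposited annotation gives the assigned gene and the distance to its TSS in bp. Its copy of the total score matched the list for 99782 of 99782 annotated peaks.

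From these files the peaks of the 9 genes were counted, located in GENCODE M21 (21911 protein-coding genes, matched by symbol) and read from GRCm38.p6, the RefSeq copy of mm10, with Python 3.11.15 (pandas 2.3.3, scipy 1.17.1, pysam 0.24.0). The transcript assigned to each of the 87 peaks is in GENCODE M21. Summit windows were 200 bp at the middle of the part of maximum signal. Densities are peaks per ungapped base over the mean of the chromosome. Counting steps were tested on simulated peaks. The genes and lists were chosen with earlier results of these data known. The genes named by rule are the 9 members and the 5 further excitatory factors with the highest signal within 1 kb of a TSS, and genes that overlap or neighbour a member are named where they carry its peaks or were assigned peaks near it, chosen after these were seen. Of each member's peaks those named are mainly the nearest to a TSS, the highest and the widest, and further ones were picked after their values were seen. Alternatives were stricter peak sets, merging, other TSS distances, windows and gene assignments. The sequence of 1 motif match is not reported here.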

Additional observations from a re-analysis of the deposited data

How the results depend on the processing

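The 9 results were recomputed under 69 alternatives, of which 37 moved a value and 32 did not. No depth is known and 1 library per antibody gives no spread, so a share counts as moved outside its counting interval, a count beyond 1.5 times, and a median when it differed at 3 digits. Stricter sets hold fewer peaks by construction, and for other moves the cause was not tested. No paired analysis was possible because each antibody has 1 library and no test was made.

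With maximum signal above the median, 48 peaks were left, constant-height peaks were 50% of them, median GC was 51.5% and median body density 3.68 times the chromosome (4.19 over all peaks). In the top 10% by maximum signal, 8 peaks were left, with 0 genes within 1 kb of a TSS, 0 gene starts covered, shares of 0% within 1 kb, of constant height and with the motif, GC 58.8% and density 0. In the top 10% by total signal, 8 peaks were left, with 1 gene within 1 kb, 0 starts covered, 0% of constant height, 0% with the motif, GC 64.3%, a median highest signal of 0 and density 0. That signal of 0 is not a measured height, because genes left without a peak were counted as 0. Without constant-height peaks, 31 were left, 16.1% of them within 1 kb, with GC 56.0% (52% over all peaks not of constant height) and density 2.43. Peaks at least 200 bp wide gave GC 49% and density 5.57. Merging within 1 kb gave 3 covered starts, GC 48.5% and density 2.41. A distance of 3 kb gave 8 genes and 20.7% of peaks (24.6% of all peaks). The part of maximum signal covered 0 gene starts, and 4 starts had a peak within 500 bp, neither of which was counted over all protein-coding genes. Windows of 400 bp gave the motif in 21.8% of the peaks (19.3% of all peaks) and GC 49.5%, and the whole peak gave GC 49.3%. Covered bases in place of peak counts gave a density of 2.80.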

Other observations

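The neighbourhood of Neurod2 was dense beyond the gene itself. Within 50 kb to either side of its start lay 27 peaks, of which the authors assigned 12 to Neurod2, 6 to Ppp1r1b, 5 to Mir5119, 3 to Stard3 and 1 to 1700003D09Rik. Ppp1r1b encodes DARPP-32, a phosphatase regulator of dopamine signalling. Around Wfs1 the same span held 16 peaks, 8 of them assigned to Wfs1, 5 to Jakmip1 and 3 to Ppp2r2c, while all 17 around Bcl11b were assigned to Bcl11b.

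Assignment by symbol and by position gave different pictures of the same genes. Counted by overlap with the gene body or the 5 kb before it, the 9 genes had 59 peaks in place of 87. Neurod6 went from 6 to 0 and Prox1 from 10 to 4, whereas Zbtb20 went from 13 to 18. Of the 5 peaks in the body of Zbtb20 that carried another symbol, 1 was not of constant height. It was 757 bp wide with a maximum of 117 (chr16:43580410-43581166), and was assigned to Mir568.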
